A study of Arabidopsis thaliana with 2 samples.

Results

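The plasma membrane proton pumps of Arabidopsis thaliana are encoded by the AHA genes (autoinhibited H+-ATPases). The 7 members described here, AHA1 (AT2G18960), AHA2 (AT4G30190), AHA3 (AT5G57350), AHA6 (AT2G07560), AHA7 (AT3G60330), AHA8 (AT3G42640) and AHA9 (AT1G80660), were taken by gene identifier from a deposited table of 33557 genes, and all 7 were found in it. The table holds 1 library of wild-type pollen tubes (WT) and 1 library of tubes labelled drop1- drop2- (drop), grown semi-in-vivo, that is, out of a cut style onto solid medium. For each library the tubes of 2 stigmas were pooled for Smart-seq2, an amplification protocol for very small amounts of polyadenylated RNA. The stigmas had been emasculated for 36 h and pollinated with 500 to 600 grains each, and tubes were cut off at the style's end once they reached 300 to 400 µm beyond it. The medium, the same for both genotypes, was at pH 7.5 and held MgSO4 at 1 mM, KCl and CaCl2 at 5 mM each, boric acid at 0.01% and sucrose at 10%. The protocol text calls the grains double mutant for both samples, so genotype rests on the genotype label, and 0 genes of the names table carried the names DROP1 or DROP2 by which the mutated genes could be looked up. With 1 library per genotype no value has a replicate error and no test across samples was possible. Words such as higher and lower describe these 2 libraries only.

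AHA pumps are P-type ATPases that use ATP to move protons out of the cell, which acidifies the wall, polarizes the plasma membrane and powers the uptake of ions and sugars through proton-coupled carriers. Their C-terminal tail inhibits the pump, and phosphorylation of the penultimate residue, a threonine, lets 14-3-3 proteins bind the tail and release the inhibition. In Arabidopsis, AHA1 and AHA2 are the main pumps of vegetative organs, AHA3 is known from phloem companion cells, and AHA6, AHA8 and AHA9 are known from pollen, where pump activity is needed for tube growth.

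The coding ends of the 7 genes are shown because they carry this regulatory site and because they show how far the genes differ where reads could be confused. Each line gives the last 30 coding bases before the stop codon, 5′ to 3′, from the RefSeq transcript with the longest coding sequence (assembly TAIR10.1), with the codon of the penultimate residue in capitals.
AHA8: attgataccattcaacaacactacACTgtt
AHA6: attgataatcttaaccaacactacACCgtc
AHA9: attgaggctatccagcaacactatACCctg
AHA7: gaggatcctaacagcaacaactacACAatc
AHA1: attgatacagcaggacatcactacACTgtg
AHA2: gacattgaaactcccagtcactacACTgtg
AHA3: gacattgagacagctggtcactacACCgtt
All 7 codons in capitals encode threonine. Over these 30 bases AHA6 differed from AHA8 at 7 positions and AHA9 at 9, while AHA7 differed at 16.

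The same sequences showed how separable the members are in short reads. AHA8 and AHA6 share 88.1% of aligned residues and 79.1% of aligned coding bases, the closest pair among the pollen pumps, and their longest identical coding stretch has 26 bases, starting at base 700 of both coding sequences.
AHA8 and AHA6: aacaatgttggccatttccaaaaggt
The longest stretch AHA8 shares with AHA9 has 30 bases and the longest it shares with AHA7 has 20. Of the 50-base windows of the AHA8, AHA6, AHA7 and AHA9 transcripts, 0 occurred in another of the 11 AHA transcripts. AHA1 and AHA2 are closer to each other, with 94.5% of residues and 89.2% of coding bases identical and a shared stretch of 59 bases, and 16 windows of 50 bases occurred in both. The division of fragments between AHA1 and AHA2 is therefore less certain than that between AHA8 and AHA6. Read length, and how reads with several matches were treated, was not given in the sources used here.

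AHA8 supplied nearly all AHA transcript in both genotypes. Its level was 1317 FPKM in WT and 5196 FPKM in drop (FPKM counts sequenced fragments per length of transcript and size of library, so it is a level per length and can be set side by side between genes). These values placed it at rank 127 of all genes in WT and rank 104 in drop. AHA8 made up 98.7% of the summed FPKM of the 7 members in WT and 98.8% in drop. A share within a library does not move when all values of that library are multiplied by the same factor, so the 2 shares can be compared whatever the scale of each library.

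The other 6 members together held 17.4 FPKM in WT and 63.2 FPKM in drop. AHA7 measured 6.18 FPKM in WT against 20.2 in drop. AHA6 measured 3.45 FPKM in WT against 38.1 in drop. AHA1 measured 5.70 FPKM in WT against 1.22 in drop. Of these 3, AHA6 and AHA7 were the higher in drop and AHA1 the higher in WT. AHA2, the other main pump of vegetative organs, measured 1.73 FPKM in WT against 3.14 in drop. AHA9 measured 0.261 FPKM in WT against 0.607 in drop, and AHA3 was at 0.118 in WT and listed at 0 in drop. Both were near the lower limit of detection, since their values rest on about 7 and 8 fragments for AHA9 and about 3 and 0 for AHA3.

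In WT the order of levels from high to low was AHA8, AHA7, AHA1, AHA6, AHA2, AHA9 and AHA3. In drop it was AHA8, AHA6, AHA7, AHA2, AHA1, AHA9 and AHA3. AHA6 thus stood below AHA7 and AHA1 in WT and above both in drop, and AHA1 stood above AHA2 in WT and below it in drop. Whether neighbours in this order differ beyond a spread between replicates cannot be told from 1 library each. The 4 AHA genes outside the member list were at or near 0. AHA4, AHA5 and AHA10, the last known from the seed coat, were listed at 0 in both libraries, and AHA11 measured 0.0389 FPKM in WT against 0.211 in drop, about 1 and 3 fragments.

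**Figure D1:**
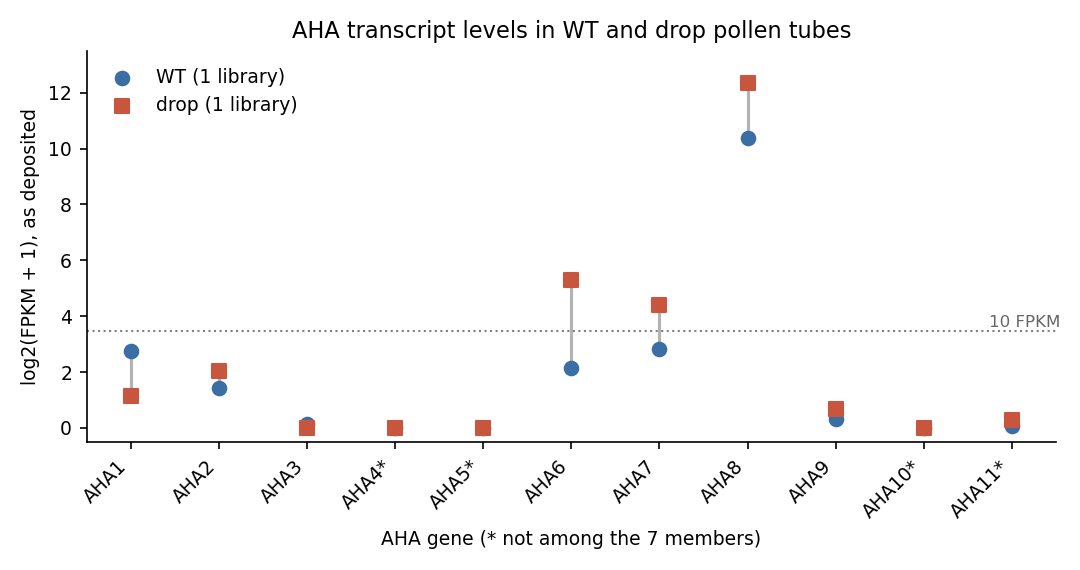
Level of each of the 11 AHA genes as log2(FPKM + 1), as deposited, in the WT library (circles) and the drop library (squares), with 1 value per genotype and a line joining them. AHA8 is far above the rest in both, AHA6 and AHA7 pass 10 FPKM in drop only, and AHA1 is the higher in WT.

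The make-up of the remaining AHA transcript differed between the libraries. Among the 6 members other than AHA8, AHA6 accounted for 19.8% of summed FPKM in WT against 60.2% in drop. AHA1 held 32.7% in WT and 1.92% in drop. AHA7 held 35.4% in WT and 31.9% in drop, and AHA2 held 9.92% and 4.97%. The shares of AHA6 and AHA1 were thus the ones furthest apart between the libraries, and AHA7 kept a similar share.

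**Figure D2:**
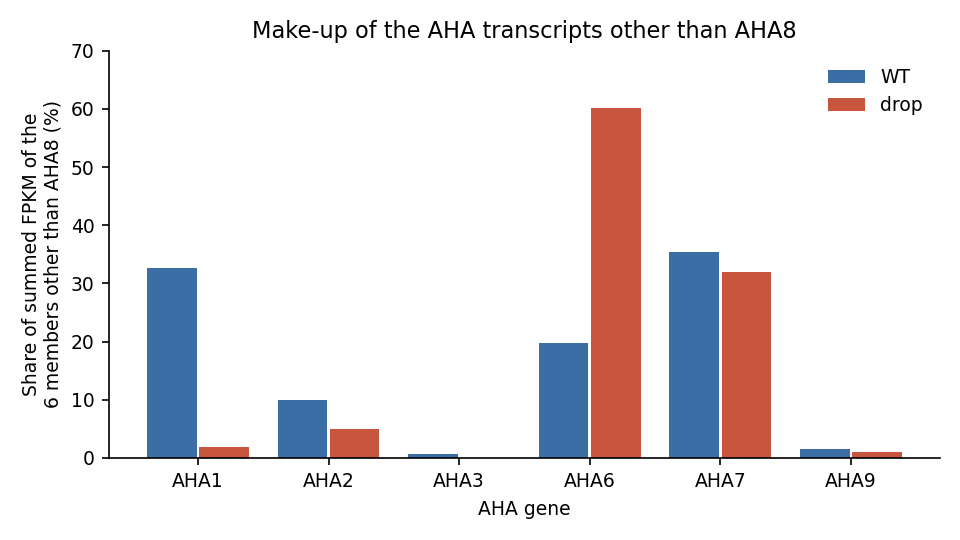
Share of each member in the summed FPKM of the 6 members other than AHA8, in percent, in WT (left bars) and drop (right bars), with 1 library per genotype. AHA6 holds 19.8% in WT and 60.2% in drop, and AHA1 holds 32.7% and 1.92%.

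Ratios between members within a library restate the same values. Like the shares, they do not move when a library is multiplied by 1 factor. AHA8 stood 382 times as high as AHA6 in WT and 136 times in drop. It stood 213 times as high as AHA7 in WT and 257 times in drop. Against AHA1, AHA8 was 231 times as high in WT and 4270 times in drop. AHA6 was 0.558 times the level of AHA7 in WT and 1.89 times in drop. AHA6 was therefore below AHA7 in WT and above it in drop.

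The levels themselves can be compared between genotypes only with care, because the 2 columns are on different scales. Summed FPKM was 2.82 times as large in drop as in WT. From the smallest steps of the values, 1 fragment was estimated to be worth about 1.80 times as much in drop. For drop this estimate is at odds with plain FPKM, as given under the processing, so drop fragment numbers are the less certain. The log2 ratio used throughout is that of drop to WT after adding 1 to each FPKM, which understates differences at low levels. Its median was 0.81 as deposited over the 3633 genes that reached 10 FPKM in either library. With both libraries set to equal sums that median was -0.58. Each member is therefore given as deposited and under 4 other scalings: equal sums, equal sums once the 50 most abundant genes and those of the organelles are set aside, a median ratio of 1 among genes that reach 10 FPKM in both, and quantile normalization.

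As deposited, AHA8 was 3.95-fold higher in drop, a log2 ratio of 1.98. That ratio was 0.48 at equal sums, 0.65 after quantile normalization and 0.87 with the median ratio set to 1. AHA8 was the higher in drop under all 5 scalings and past 2-fold in the deposited values only. The estimate of its fragments was about 33000 in WT and 71000 in drop. Of all genes that reached 10 FPKM, 18.2% had a higher log2 ratio than AHA8 as deposited and 44.6% after quantile normalization. Among the 37 genes whose mean log2(FPKM + 1) lay within 0.5 of that of AHA8, the median log2 ratio was 1.99 and 19 were higher than AHA8, so it sat in the middle of genes of its own level.

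AHA6 was 11.05-fold higher in drop as deposited, with a log2 ratio of 3.14. At equal sums that ratio was 1.64, with the median ratio set to 1 it was 2.07 and after quantile normalization it was 3.17. AHA6 passed 2-fold under all 5 scalings. Its values rest on about 89 fragments in WT and 550 in drop. Of the 3633 genes that reached 10 FPKM, 136 had a higher log2 ratio than AHA6, or 3.74%. AHA6 was among these genes only through drop, so it had to be high there, and its place is given as a description. Among 1045 genes of like level to AHA6 the median log2 ratio was 0.30 and 22 were higher.

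AHA7, known in Arabidopsis from pollen and root hairs, was 3.27-fold higher in drop as deposited, with a log2 ratio of 1.56. It stayed above 0 under all 5 scalings, at 0.18 at equal sums and 0.53 under the median-ratio scaling, but passed 2-fold only as deposited and after quantile normalization, where it was 1.63. Its values rest on about 150 fragments in WT and 280 in drop. Among 1064 genes of like level to AHA7, 14.7% had a higher log2 ratio.

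AHA1 was the one member whose log2 ratio lay below that of a 2-fold difference. Its FPKM was 4.69-fold lower in drop as deposited, a log2 ratio of -1.60, and the log2 ratio ran from -2.10 to -1.28 over the 5 scalings. AHA1 was below 10 FPKM in both libraries, and its drop value rests on about 18 fragments against about 150 in WT. Among 2304 genes of like level to AHA1, 504 had a lower log2 ratio. AHA2 was represented by about 43 fragments in each library, and its log2 ratio of 0.60 as deposited turned to -0.33 at equal sums and -0.15 under the median-ratio scaling, while after quantile normalization it was 0.94. AHA1 and AHA2 summed, which does not depend on how fragments were divided between them, measured 7.43 FPKM in WT against 4.36 in drop. AHA9 had a log2 ratio of 0.35 as deposited, which was -0.043 at equal sums, and that of AHA3 lay between -0.16 and -0.083 over the 5 scalings. Adding 1 holds both near 0, since their FPKM lay below 1, and a drop value of 0 is not moved by any factor. With 0.1 added instead, the log2 ratios as deposited were 0.97 for AHA9 and -1.12 for AHA3. At so few fragments a difference could not be judged for either.

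**Figure D3:**
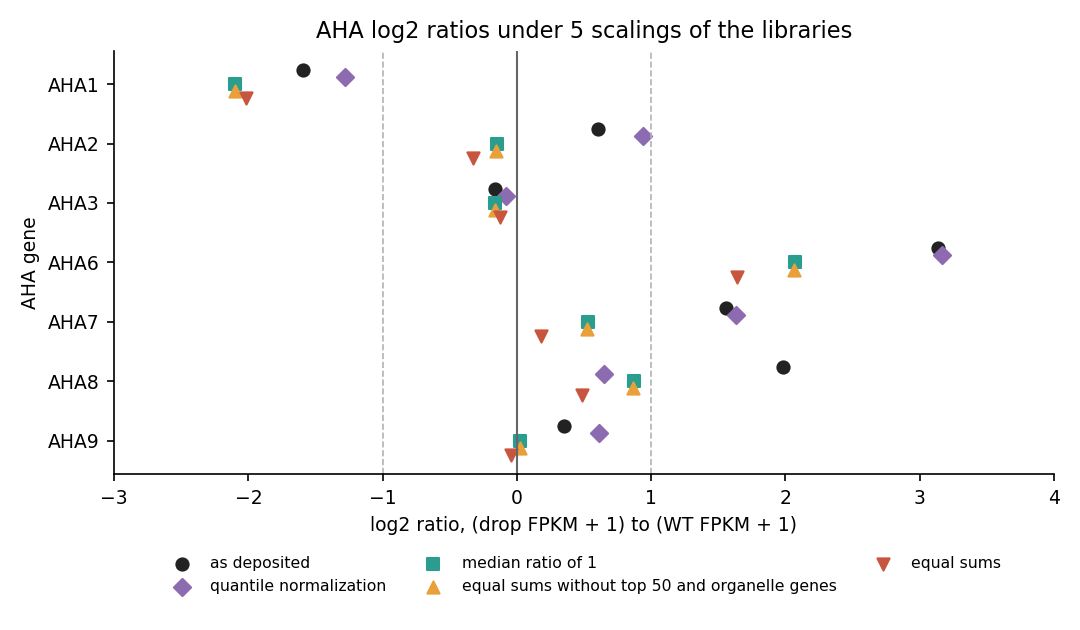
Log2 ratio of drop to WT for the 7 members, with 1 added to each FPKM, under 5 scalings of the libraries shown by symbol. Dashed lines mark 2-fold; AHA6 lies past 2-fold higher and AHA1 past 2-fold lower under all 5, and AHA8 past 2-fold higher only as deposited.

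A gene was called at 2-fold on this scale once it reached 10 FPKM in either library. Of the 7 members, 3 passed this filter, AHA6, AHA7 and AHA8. All 3 were called higher in drop and 0 lower, where 45.4% of all genes passing the filter were called higher and 27.9% lower. AHA1 was below 10 FPKM in both libraries, so it could not be called lower by this rule. AHA6 and AHA7 passed the filter only through drop, so they had to be high there, and their count is given as a description. At equal sums 1 member, AHA6, was called higher and 0 lower, where the shares over all genes were 8.64% and 43%. AHA6 was also the one called higher with the median ratio set to 1 (15.9% of all genes higher, 38.3% lower) and at equal sums without the most abundant genes (15.7% higher, 38.3% lower). After quantile normalization AHA6 and AHA7 were called higher, beside 35.2% of all genes higher and 28.8% lower. At 4-fold, as deposited, AHA6 was called higher, beside 17.6% of all genes higher and 19.7% lower. No member that reached 10 FPKM was called lower under any of these settings. With the limit raised to 50 FPKM 1 member, AHA8, the only one to reach it, was called higher, beside 63.7% of all genes higher and 20.3% lower. With no limit the same 3 members were called higher and AHA1 lower, beside 7.76% of all genes higher and 8.94% lower. Summed over the 7 members, AHA transcript measured 1334 FPKM in WT against 5259 in drop, a log2 ratio of 1.98, and with each library set to a sum of 1000000 it stood at 1027 in WT and 1434 in drop.

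**Figure D4:**
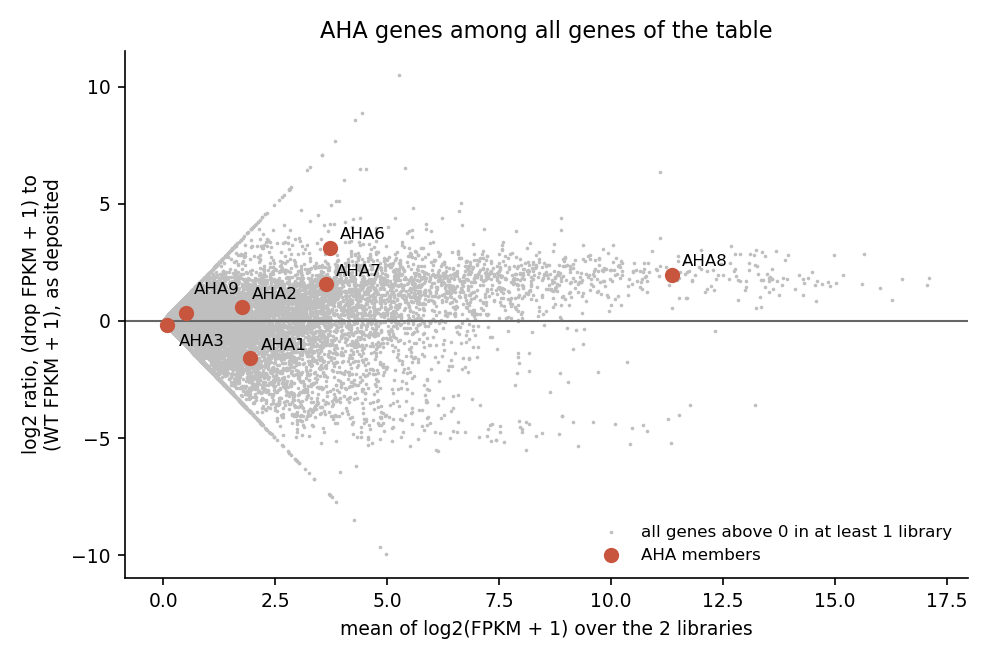
Log2 ratio of drop to WT, as deposited, against the mean of log2(FPKM + 1) over the 2 libraries for 16733 genes above 0 in at least 1 library (small points) and the 7 members (large labelled points). AHA8 lies within the band of highly expressed genes, AHA6 near the upper edge of genes of its level and AHA1 below most genes of its level.

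Markers of the cell types that the tubes could hold were set beside these values. The vegetative cell of the tube, which grows it, was represented by 14 genes, of which 13 were measured (reaching 1 FPKM in either library). All 13 reached 10 FPKM, and 12 were at least 2-fold higher in drop as deposited and 4 at equal sums. These counts stand beside 45.4% and 8.64% of all genes. CNGC18 and RBOHH reached 10 FPKM in drop only, so they had to be higher there. RBOHJ was listed at 0 in WT. Over all 14 the median log2 ratio was 2.04, from 0.53 to 2.73. AHA8 lay in the middle of these markers, with 7 above it as deposited and at equal sums and 11 above it after quantile normalization. AHA6 lay above all 14 and AHA1 below all 14, under each of the 5 scalings. The higher vegetative markers in drop moved with the higher AHA8, AHA7 and AHA6 levels as deposited, and their part in these was not tested. Within each library AHA8 was 0.231 times the level of VGD1, a pectin methylesterase of the tube wall, in WT and 0.271 times in drop, and 6.57 and 5.84 times that of ROP1, the small GTPase of tip growth. Against AGP6, an arabinogalactan protein of pollen, it was 0.182 times as high in WT and 0.355 times in drop, so AHA8 did not keep 1 ratio to all tube markers. AGP11, another arabinogalactan protein and the marker of highest mean, had 11006 FPKM in WT against 28010 in drop, a log2 ratio of 1.35 as deposited and -0.15 at equal sums. The markers of largest log2 ratio were the transcription factor gene MYB120, with 90.2 FPKM in WT against 604 in drop, and the calcium-dependent kinase gene CPK34, with 58.6 against 363.

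Sperm cell transcripts were lower in drop: the summed level of the 14 sperm markers was 51695 FPKM in WT and 3456 in drop. Of the 12 that reached 10 FPKM, 12 were at least 2-fold lower as deposited, beside 27.9% of all genes. HAP2, GEX3, DAU2, TET11, TET12 and SSP reached 10 FPKM in WT only, so they had to be lower in drop. GEX2 went the other way, at 9.35e-05 FPKM in WT, which is close to 0, and 0.331 in drop. None of the 14 was listed at 0. Of these, the F-box gene DAF1 measured 32693 FPKM in WT against 2748 in drop, PCR11 was at 8504 and 220.2, and DAU2 was at 111 and 2.59. The 10 markers of green tissue summed to 142 FPKM in WT and 21.8 in drop. Of these, 4 of 4 that reached 10 FPKM were at least 2-fold lower as deposited, beside the same 27.9% of all genes. All 4 reached it in WT only, so they had to be lower in drop, and their count is given as a description. The Rubisco gene RBCS3B was at 83.7 and 3.22. RBCS1A, another Rubisco gene, was at 18.9 and 5.34, and the photosystem gene PSBO1 was at 12.5 and 3.23. Of the green markers 1 was at 0 in WT and 3 were at 0 in drop (LHB1B1 in both, RBCS2B and CAB3 in drop). The lower AHA1 level in drop thus moved with both marker lists, and their part in it was not tested. The 12 style and transmitting tract markers summed to 48.0 FPKM in WT and 71.1 in drop, with 7 at 0 in WT and 6 in drop, and HEC1, HEC2, HEC3, STY1 and CRC at 0 in both, BEE3 and STK at 0 in WT and NTT at 0 in drop. Most of both sums came from CES, the one gene of the list that reached 10 FPKM, with 43.8 FPKM in WT against 55.1 in drop, and its log2 ratio of 0.33 as deposited was -1.11 at equal sums. In such pooled samples, fewer cells of a type and less RNA per cell cannot be told apart.

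**Figure D5:**
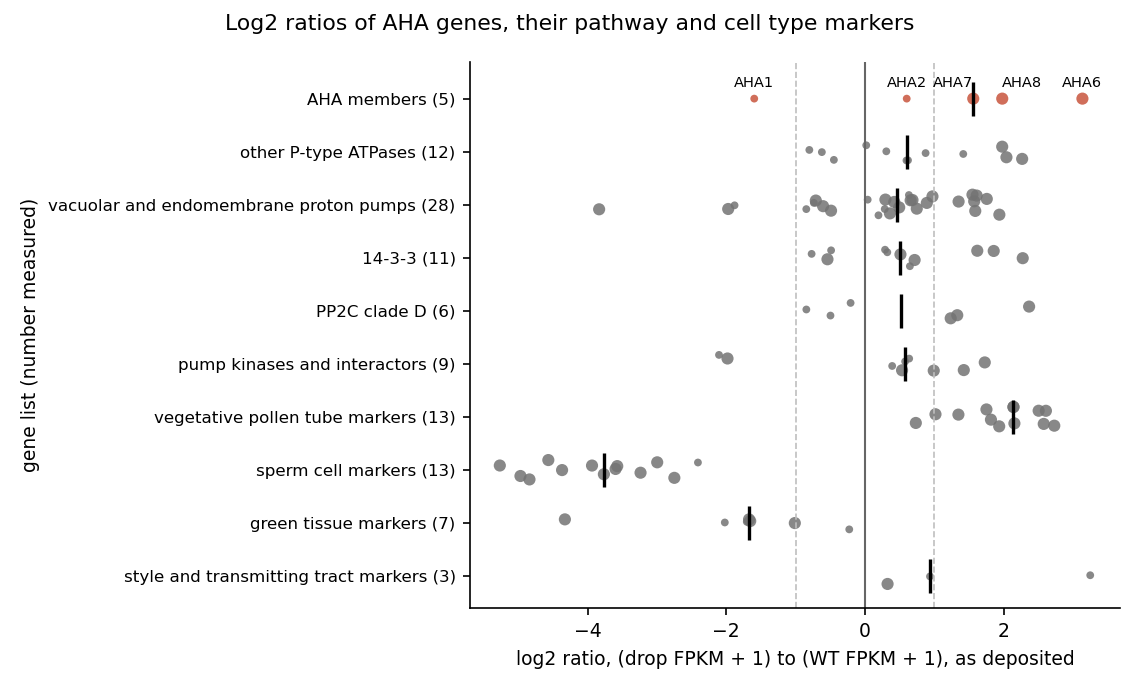
Log2 ratio of drop to WT, as deposited, for the measured genes of each list, with large points for genes of at least 10 FPKM in at least 1 library, vertical bars at list medians and dashed lines at 2-fold. The AHA members span from -1.60 for AHA1 to 3.14 for AHA6, vegetative tube markers lie to the right, and sperm and green tissue markers lie to the left.

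Among P-type ATPases, the enzyme superfamily to which the pumps belong, AHA8 had the highest FPKM in both libraries. Of 35 other P-type ATPases, 12 were measured and 3 had at least 10 FPKM. All 3 were past 2-fold higher in drop as deposited and 0 at equal sums, beside 45.4% and 8.64% of all genes. AT1G54280 and AT3G13900 reached 10 FPKM in drop only, so they had to be higher there, and the count is given as a description. The nearest to AHA8 in level was ACA9, a calcium pump of the pollen tube plasma membrane, at 85.6 FPKM in WT and 355 in drop. AHA8 was 15.4 times as high as ACA9 in WT and 14.6 times in drop, so this ratio was alike in the 2 libraries. AT1G54280, annotated as an E1-E2 type ATPase, measured 6.50 FPKM in WT against 35.1 in drop. The median log2 ratio of the 12 measured genes was 0.61 as deposited and -0.42 at equal sums, beside 0.81 and -0.58 for all genes passing the filter.

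Proton pumps of the vacuole and endomembranes, made up of the subunits of the V-ATPase and the pyrophosphatases, had genes called in both directions as deposited. Of 31 genes 28 were measured, and 21 reached 10 FPKM. Of these, 7 were higher and 2 lower in drop as deposited, beside 45.4% and 27.9% of all genes. At equal sums 0 were higher and 8 lower, beside 8.64% and 43% of all genes. Their median log2 ratio was 0.46 as deposited and -0.85 at equal sums. DET3, the C subunit of the V-ATPase, measured 323 FPKM in WT against 21.8 in drop, the largest difference of the list. VMA10, a G subunit, was at 38.6 in WT and 9.08 in drop, so it passed the filter through WT only. AVA-P2, a proteolipid subunit, measured 174 FPKM in WT against 275 in drop, and VATG3, another G subunit, was at 137 and 271. Summed over the list, these genes measured 1484 FPKM in WT against 2167 in drop, and AHA8 alone was at 1317 and 5196.

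The 14-3-3 proteins, which bind the phosphorylated tail of the pumps, had 11 of 13 genes measured and 3 of 6 that reached 10 FPKM higher in drop as deposited, beside 45.4% of all genes. At equal sums 0 were higher and 1 was lower, beside 8.64% and 43% of all genes. The 1 lower was GRF5, with 38.5 FPKM in WT against 26.2 in drop. GRF12 measured 135 FPKM in WT against 658 in drop. GRF1 measured 130 FPKM in WT against 401 in drop, and GF14 PHI was at 96.7 and 353. These 3 were the most abundant 14-3-3 genes in both libraries, and at equal sums their log2 ratios were 0.78, 0.13 and 0.37. The median of the 11 measured genes was 0.51 as deposited and -0.68 at equal sums.

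Clade D phosphatases of type 2C remove the phosphate from the penultimate threonine in Arabidopsis seedlings. Of 9 such genes 6 were measured. Of those that reached 10 FPKM, 3 of 3 were higher in drop as deposited and 0 of 3 at equal sums, beside 45.4% and 8.64% of all genes. All 3 reached 50 FPKM in at least 1 library, a level at which 63.7% of all genes were called higher as deposited. AT3G12620 measured 105 FPKM in WT against 547 in drop, and AT3G55050 was at 80.6 and 204. Their log2 ratios of 2.37 and 1.33 became 0.87 and -0.15 at equal sums.

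Of 16 genes for kinases and other interactors of the pumps, 9 were measured and, of 5 that reached 10 FPKM, 2 were higher and 1 lower in drop as deposited, beside 45.4% and 27.9% of all genes. At equal sums 0 were higher and 1, J3, was lower, beside 8.64% and 43% of all genes. The chaperone gene J3, whose product represses the pump-inhibiting kinase PKS5 in Arabidopsis, measured 61.5 FPKM in WT against 14.8 in drop, and its log2 ratio was -1.98 as deposited and -3.26 at equal sums. The receptor-like kinase gene AT3G23750 measured 5.44 FPKM in WT against 20.3 in drop, so it passed the filter through drop only. The kinase gene SR1 had 36.2 FPKM in WT against 72.9 in drop, and the kinase gene AT4G18950 had 24.1 against 66.3. The median of the 9 measured genes was 0.58 as deposited and -0.58 at equal sums.

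The named protein-coding genes with values most like those of AHA8, by Euclidean distance on log2(FPKM + 1) over the 2 libraries, were sks11 (1397 FPKM in WT and 5366 in drop, distance 0.097), MAP18 (1230 and 5188, distance 0.098) and scpl38 (1181 and 5246, distance 0.16). For AHA6 they were GSTU3 (3.36 and 41.3, distance 0.12), FAR1 (3.58 and 32.1, distance 0.24) and S6K2 (4.56 and 38.1, distance 0.32). For AHA9 they were PKDM7D, GGH1 and DPB2, at distances of 0.012 to 0.031. At so low a level 1119 named genes lay within 0.5 of AHA9, against 6 for AHA8 and 9 for AHA6.

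Annotated genes overlap some members. AHA9 overlaps RTL1 on the opposite strand, which measured 2.81 FPKM in WT against 2.69 in drop, above AHA9 itself. Because strand is not stated for the counting, fragments of AHA9 and RTL1 may not have been told apart. AHA7 overlaps AT3G60328 on the opposite strand, listed at 0 in both libraries, and AT3G00950, which is not analysed here. AHA8 overlaps AT3G06425, a long non-coding RNA gene on the opposite strand that is not analysed here either. The same limit on strand holds for the overlaps of AHA7 and AHA8. AHA1, AHA2, AHA3 and AHA6 overlap 0 annotated genes.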

How the data were processed

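Per the file headers, the authors deposited FPKM in 1 table of 2 columns. The submitters' processing notes name Cufflinks 2.2.1, TopHat2 2.0.14 and the build TAIR10. Which annotation, parameters and any later scaling were used was not given in the sources used here. From these values log2((drop FPKM + 1)/(WT FPKM + 1)) was computed with pandas 2.3.3, without a test because each genotype has 1 library. A gene was called at 2-fold if it reached 10 FPKM in either library. To estimate fragments, FPKM multiplied by kb of RefSeq transcript was divided by what 1 fragment contributes (0.134 in WT, 0.242 in drop), taken as the lowest peak of that product over 36 WT and 61 drop genes with a single transcript of 3 kb or more. These are approximate, and no interval is given. Single-transcript genes held about 7140000 and 10200000 such fragments. In plain FPKM, 0.242 per fragment implies a drop library smaller than 10200000. The 2 drop values are thus at odds, and the reason was not tested. The ratio of 1.80 and the drop fragment numbers carry this uncertainty. Gene names, lengths and coding sequences came from RefSeq TAIR10.1, which differs from the authors' build, so no genome coordinates are given. Of 33557 identifiers 32810 matched. Coding sequences were aligned globally with Biopython 1.88 (residues with BLOSUM62). Calculations were tested on simulated tables. Members and the 9 gene lists were chosen with earlier results of these data known. Named genes are the AHA genes, from each list the 2 of highest mean and the 2 of largest log2 ratio among genes that reached 10 FPKM, and the 3 nearest to AHA8, AHA6 and AHA9. ROP1, AGP6, GRF5, GEX2 and the genes listed at 0 or overlapping a member were named after their values were seen. So were HAP2, GEX3, TET11, TET12, SSP, CNGC18, RBOHH and AT3G13900.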

Additional observations from a re-analysis of the deposited data

How the results depend on the processing

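No paired analysis was possible because 1 library stood for each genotype, so no replicate could be left out either. Of 111 alternative values, 64 lay within 1.5-fold of the value given (and on the same side of 0 where it was called). Among these, AHA9 at equal sums, which was not called, changed sign. Another 32 moved further (among them 3 of AHA2 that changed sign) and 15, all of them list medians, changed sign. The cause was not tested beyond the scaling or filter itself. The share of AHA8 stayed between 98.3% and 99.3% under its alternatives. With a pseudocount of 10 the log2 ratios were -0.49 for AHA1, 1.84 for AHA6 and 0.90 for AHA7, and with 0.1 they were -1.12 for AHA3 and 0.97 for AHA9. At equal sums, with the median ratio set to 1, and at equal sums computed without organelle genes and the 50 most abundant ones, in that order, log2 ratios were -0.33, -0.15 and -0.15 for AHA2, 1.64, 2.07 and 2.07 for AHA6, 0.18, 0.53 and 0.53 for AHA7, 0.48, 0.87 and 0.87 for AHA8 and 0.48, 0.87 and 0.87 for the summed members. After quantile normalization AHA8 was at 0.65 and the sum at 0.66. The number of members called higher, 3 as deposited, was 1 under each of those 3 scalings, 1 with FPKM of at least 50 and 1 at 4-fold, and the number lower was 1 with no filter (AHA1). Under the same 3 scalings the list medians were -0.68, -0.49 and -0.49 for 14-3-3 genes, -0.52, -0.31 and -0.32 for clade D phosphatases, -0.58, -0.33 and -0.34 for kinases and interactors, -0.85, -0.58 and -0.58 for vacuolar pumps and -0.42, -0.22 and -0.22 for other P-type ATPases, while after quantile normalization all 5 stayed above 0 (0.60, 0.37, 0.63, 0.26 and 0.92, in the same order). With FPKM of at least 50 they were 1.86 for 14-3-3 genes, 1.33 for phosphatases and 2.04 for other P-type ATPases. With no filter the medians of phosphatases and of other P-type ATPases were both 0. Depth limits AHA3 and AHA9, which rest on fewer than 10 fragments per library.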
